A study of Caenorhabditis elegans with 9 samples.

Results

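The Hedgehog-related, patched-related and molting genes of the nematode Caenorhabditis elegans were followed across 4 strains on 9 Affymetrix C. elegans Genome Arrays. The members were the genes whose symbol begins with wrt (warthog), grd (groundhog), grl (ground-like), ptr (patched-related), ptc (patched) or mlt (molting defective), together with hog-1 and qua-1. They were 88 genes of the 17118 that had a probe set of their own, and they lay on 110 of 22548 probe sets. The families held 10 wrt, 12 grd, 30 grl, 24 ptr, 2 ptc and 8 mlt genes, beside hog-1 and qua-1. The strains were the double mutant nth-1;xpa-1 with 2 arrays, xpa-1(ok698) with 2 arrays, nth-1(ok724) with 3 arrays and the wild type Bristol N2 with 2 arrays, and the double mutant carries both alleles. NTH-1 is a DNA glycosylase of base excision repair and XPA-1 is a damage recognition protein of nucleotide excision repair. Every array held total RNA of a mixed-stage population raised on plates seeded with the bacterial strain HT115(DE3) and harvested once the food was gone. Both alleles are deletions present in all cells, that of nth-1 removing internal exons, the double mutant was made for the study, and the strains had been backcrossed shortly before. The age of the animals was not fixed, since each array pooled many plates of mixed stages. The series text calls the mutants RNAi mutants, whereas the methods describe deletion alleles.

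C. elegans has no clear Hedgehog ligand and no Smoothened, but its genome holds large families of secreted proteins that resemble parts of Hedgehog. Warthog and groundhog proteins, HOG-1 and QUA-1 are related to Hedgehog through the carboxy-terminal Hog domain that many of them carry, whereas ground-like proteins carry a short cysteine-rich domain of their own. The patched and patched-related proteins are multipass membrane proteins with a sterol-sensing domain, relatives of the vertebrate Hedgehog receptor Patched and of Dispatched. Silencing of many of these genes impairs growth and molting, the shedding of the old cuticle at the end of each larval stage, and expression of several of them cycles with the molts in the epidermis. The mlt genes were named for molting defects and encode unrelated proteins, among them ankyrin repeat partners of the NEKL kinases, a heme peroxidase and a protein with Kunitz-type protease inhibitor domains.

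The deposited values were read as log2 expression values, a scale inferred from their range and the methods, so that a difference of 1 is a 2-fold difference, and each gene is given by the brightest of its own probe sets. Of these probe sets of the 88 members, 29 were of the s_at and 3 of the x_at type, which may also match other transcripts. Those of ptr-2, mlt-2, wrt-3 and grl-20 were among them. A member was called where the adjusted p of limma, fitted over all probe sets and all 9 arrays, was under 0.05. By mean value 44 of 88 members lay below the median of all probe sets, which ranks probe brightness and not transcript level. The table carries no detection calls, so how many members were expressed above background is unknown. The xpa-1 transcript read 5.66 to 6.59 in the xpa-1 arrays and 5.78 to 6.03 in the double mutant, against 10.35 to 10.69 in nth-1 and 10.57 to 10.58 in N2. The nth-1 probe set read 9.37 to 9.63 in nth-1, 9.38 to 9.46 in the double mutant, 9.69 to 10.37 in xpa-1 and 9.32 to 9.63 in N2, and since the place of its probes relative to the deleted exons was not examined here, it does not check the labels.

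Some arrays stood apart. In nth-1 replicate 3, 24 of the 88 members lay at least 1 log2 unit from the mean of nth-1 replicates 1 and 2, and 20 of these were higher. The same limit was passed by 2 members between nth-1 replicates 1 and 2, by 1 member between the xpa-1 arrays, and by none in the double mutant or N2 pairs. The share of all genes past this limit was not counted, so the counts cannot be called particular to the members. Over all probe sets nth-1 replicate 3 correlated with its own strain at r = 0.950 and 0.952, and xpa-1 replicate 2 correlated more closely with nth-1 replicate 1 (r = 0.987) than with xpa-1 replicate 1 (r = 0.980). The BioC hybridization controls fell into a lower level of 8.04 to 8.28, held by xpa-1 replicate 2 with the 3 nth-1 arrays, and a higher level of 9.54 to 9.99, held by the rest. The nth-1 and N2 strains share no BioC level, so strain and BioC level cannot be told apart between them. In a fit with BioC level as a block, which sets them against each other through the xpa-1 arrays, no member was called in nth-1 against N2. P-values rest on the spread between arrays of a strain, of which there were 2 or 3, pooled over all strains for each probe set. That spread includes nth-1 replicate 3, also in comparisons without nth-1. In RNA of whole mixed-stage populations, fewer cells or animals that express a gene and less RNA per cell cannot be told apart.

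In xpa-1, the widest differences of all members from N2 were those of 6 ground-like genes. In xpa-1 against N2, 12 of 88 members were called, 3 higher and 9 lower, or 13.6% of members where 10.9% of all genes were called, 3.36% higher and 7.52% lower. In the double mutant against N2, 10 members were called, 4 higher and 6 lower, or 11.4% beside 9.1% of all genes (4.5% higher and 4.59% lower). In nth-1 against N2, 6 members were called, 3 higher and 3 lower, or 6.82% beside 10.4% of all genes (2.8% higher and 7.62% lower). The share of members called lay within a few percentage points of the share of all genes in each of these comparisons. The 3 comparisons share the N2 arrays. With BioC level as a block the members called were grl-23, grl-28 and ptr-2 in xpa-1, and grl-3, grl-6, grl-17, mlt-3, mlt-7 and ptr-2 in the double mutant. The median member differed from N2 by -0.09 in xpa-1, 0.09 in the double mutant and -0.02 in nth-1, beside -0.07, 0.05 and -0.07 for all genes. After quantile normalization nth-1 had 5 members higher and 3 lower than N2, where the deposited scale gave 3 and 3.

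**Figure D1:**
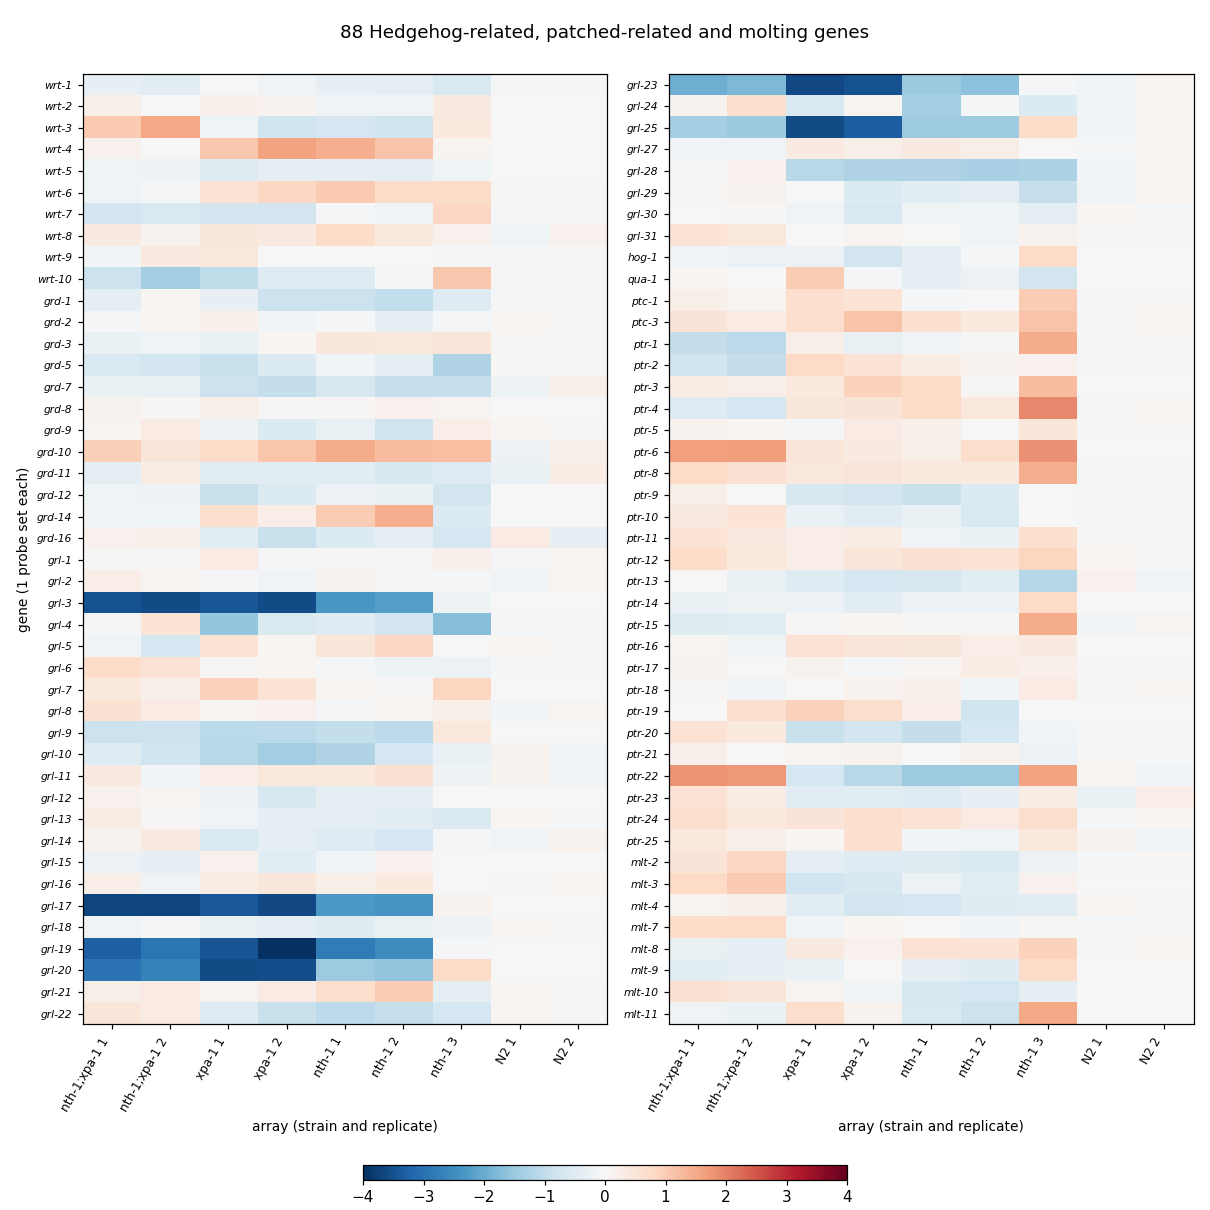
Each row is 1 member, each column 1 array, and the colour gives the log2 value minus the mean of the 2 N2 arrays (blue lower, red higher). The darkest blue cells are those of the 6 ground-like genes grl-3, grl-17, grl-19, grl-20, grl-23 and grl-25 in xpa-1 and the double mutant. In nth-1 replicate 3 these 6 genes, many patched-related genes, mlt-9 and mlt-11 read higher than in replicates 1 and 2. The other 24 ground-like genes averaged -0.24 relative to N2 in nth-1 replicate 3, against -0.27 and -0.17 in replicates 1 and 2.

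The ground-like genes grl-3, grl-17, grl-19, grl-20, grl-23 and grl-25 fell together in xpa-1, with log2 differences from N2 of -3.44 to -3.89, and 5 of them fell in the double mutant, with differences of -1.88 to -3.67. The 6 genes were picked after their values had been seen, so their joint level is a description. Their mean relative to N2 was -3.51 and -3.64 in the xpa-1 arrays, -2.78 and -2.69 in the double mutant arrays, and -1.97, -1.95 and 0.22 in nth-1 replicates 1, 2 and 3. The other 24 ground-like genes averaged -0.18 and -0.25 in xpa-1, 0.11 and 0.05 in the double mutant and -0.27, -0.17 and -0.24 in nth-1 relative to N2.

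grl-23 read 7.52 and 7.63 in xpa-1, 9.16 and 9.33 in the double mutant and 9.63, 9.48 and 11.06 in nth-1, against 11.02 and 11.22 in N2. Every xpa-1 and double mutant array lay below both N2 arrays, whereas nth-1 replicate 3 lay between them. The gene fell 11.7-fold in xpa-1 (log2 difference -3.54 ± 0.46 SE, limma adjusted p = 0.00373) and 3.67-fold in the double mutant (-1.88 ± 0.46, adjusted p = 0.041). The call in xpa-1 passed in each of 9 fits that left out 1 array, with a highest adjusted p of 0.0482, and with BioC level as a block (adjusted p = 0.0275).

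For grl-17 the xpa-1 arrays read 5.86 and 5.65, the double mutant arrays 5.59 and 5.57 and the nth-1 arrays 6.94, 6.90 and 9.38, against 9.26 and 9.24 in N2. The double mutant arrays lay just below the xpa-1 arrays here, and nth-1 replicate 3 alone lay above N2. The fall was 11.3-fold in xpa-1 (-3.50 ± 0.69, adjusted p = 0.0181) and 12.7-fold in the double mutant (-3.67 ± 0.69, adjusted p = 0.0179). For grl-3 the double mutant arrays lay within the range of the xpa-1 arrays and all nth-1 arrays lay below N2, with 6.35 and 6.17 in xpa-1, 6.26 and 6.19 in the double mutant and 7.44, 7.56 and 9.55 in nth-1, against 9.73 and 9.79 in N2 (adjusted p = 0.00983 in xpa-1 and 0.0116 in the double mutant).

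grl-19 read 5.83 and 4.98 in xpa-1, 6.04 and 6.38 in the double mutant and 6.49, 6.78 and 9.26 in nth-1, against 9.31 and 9.28 in N2. It showed the widest difference of any member, a 14.8-fold fall in xpa-1 (-3.89 ± 0.77, adjusted p = 0.0181), and fell 8.49-fold in the double mutant (adjusted p = 0.044). grl-20 read 6.29 and 6.32 in xpa-1, 6.91 and 7.17 in the double mutant and 8.41, 8.30 and 10.64 in nth-1, against 9.90 and 9.85 in N2 (adjusted p = 0.0137 in xpa-1 and 0.0348 in the double mutant). A second probe set of grl-20 differed from N2 by -1.17 in xpa-1 and -1.02 in the double mutant and was called in neither (adjusted p = 0.099 and 0.153).

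grl-25 read 7.54 and 7.82 in xpa-1, 9.76 and 9.63 in the double mutant and 9.71, 9.70 and 11.85 in nth-1, against 11.02 and 11.22 in N2. It fell 10.9-fold in xpa-1 (-3.44 ± 0.62, adjusted p = 0.0131), and its second probe set fell 19.1-fold (adjusted p = 0.00837). In the double mutant both probe sets lay below both N2 arrays, with differences of -1.43 and -2.47 that were not called (adjusted p = 0.189 and 0.0604).

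**Figure D2:**
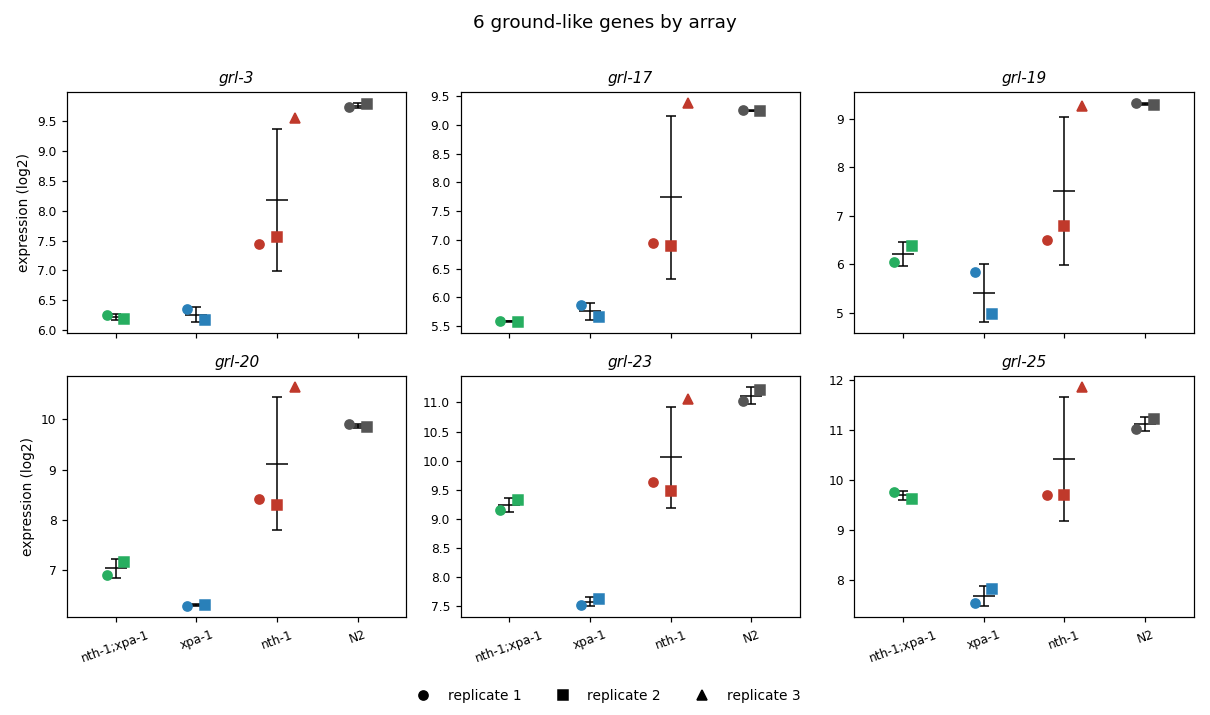
Log2 expression (y axis, own scale for each gene) of the 6 ground-like genes in the double mutant, xpa-1, nth-1 and N2, from left to right. Each symbol is 1 array, its shape gives the replicate number, and the black bar is the mean with the SD of 3 or 2 arrays. nth-1 replicate 3 (triangle) sits near or above N2, while the other nth-1 arrays and all arrays of the double mutant and xpa-1 sit below N2.

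None of the 6 genes was called in nth-1 against N2, where the differences ran from -0.70 to -1.78 (adjusted p = 0.0996 to 0.472). In the fit without nth-1 replicate 3 all 6 were called, with differences of -1.42 (grl-25) to -2.66 (grl-19) and adjusted p of 6.51e-06 to 0.000434. Leaving out either xpa-1 array or either N2 array ended the xpa-1 calls of grl-17, grl-19, grl-20 and grl-25 (adjusted p up to 0.123), and leaving out xpa-1 replicate 2 or either N2 array ended that of grl-3 (up to 0.0825). Across these fits the xpa-1 differences of the 5 genes ran from -3.30 to -4.32. Leaving out either double mutant array or either N2 array ended all 5 double mutant calls, with adjusted p up to 0.237, and those of grl-19, grl-20 and grl-23 also ended without either xpa-1 array and that of grl-19 without nth-1 replicate 2. With BioC level as a block, the xpa-1 differences of grl-17, grl-19, grl-20, grl-25 and grl-3 were -3.39 to -3.58, with adjusted p of 0.0639 to 0.111, and among the double mutant calls those of grl-3 and grl-17 passed (0.0202 and 0.03).

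Markers of the adult cuticle were low in nth-1 replicate 3. The 4 measured markers of the adult cuticle averaged 7.52 in nth-1 replicate 3, against 8.80 and 9.13 in the other nth-1 arrays, 8.40 and 8.84 in xpa-1, 8.68 in both double mutant arrays, and 8.72 and 8.82 in N2. Each of the 4 read lowest of the nth-1 arrays in replicate 3, with 9.86 for col-19, 7.29 for rol-1, 6.71 for bli-1 and 6.21 for bli-2. In xpa-1 replicates 1 and 2 the values were 10.64 and 12.18 for col-19, 8.60 and 8.14 for rol-1, 7.40 and 7.56 for bli-1 and 6.97 and 7.46 for bli-2, so the markers did not move one way between these arrays. The 6 epidermal markers averaged 10.01 in nth-1 replicate 3, 8.99 and 9.06 in the other nth-1 arrays, 9.18 and 9.26 in xpa-1, 9.39 and 9.43 in the double mutant, and 9.16 and 9.24 in N2, and none of the 6 was called in any mutant against N2. No marker of either list was at 0, and the lowest read 6.21. The part of stage composition in the ground-like values was not tested.

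Of the other 24 ground-like genes, grl-28, grl-22 and grl-10 were called lower in at least 1 single mutant, and grl-6 was called higher in the double mutant. grl-28 read 7.15, 7.03 and 7.08 in nth-1 and 7.22 and 7.14 in xpa-1, against 8.24 and 8.44 in N2. Its double mutant arrays, at 8.30 and 8.51, overlapped N2. The gene fell 2.38-fold in nth-1 (-1.25 ± 0.15, adjusted p = 0.00234) and 2.23-fold in xpa-1 (-1.16 ± 0.16, adjusted p = 0.00501). In nth-1 it was the only member whose call passed in all 9 fits that left out 1 array (highest adjusted p = 0.0475), and in xpa-1 the call failed only without N2 replicate 2 (adjusted p = 0.0636).

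grl-22 read 7.08, 7.21 and 7.45 in nth-1 and 7.64 and 7.24 in xpa-1, against 8.22 and 8.06 in N2. It fell in nth-1 (-0.89 ± 0.19, adjusted p = 0.0205), and the xpa-1 arrays also lay below both N2 arrays without a call (-0.70, adjusted p = 0.0615). The nth-1 call ended without nth-1 replicate 1, nth-1 replicate 2 or either N2 array, with adjusted p up to 0.182. grl-10 read 7.48 and 7.22 in xpa-1, against 8.75 and 8.44 in N2 (-1.25 ± 0.30, adjusted p = 0.0337), and it lost the call without any 1 of the xpa-1, double mutant or N2 arrays (adjusted p up to 0.214) and with BioC level as a block (0.157). grl-6 read 8.47 and 8.30 in the double mutant, against 7.70 and 7.77 in N2 (0.65 ± 0.16, adjusted p = 0.0426), and it was not called after quantile normalization or without either double mutant, either N2, nth-1 replicate 1 or nth-1 replicate 2 array (adjusted p up to 0.256).

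grl-28, grl-29, grl-30 and grl-31 lie close together in the RefSeq gene order of the assembly WBcel235, with 1 protein-coding gene between grl-28 and grl-29 and none between the others. grl-28 alone of the 4 was called in a mutant against N2. grl-8 and grl-9 are also adjacent, and neither was called against N2.

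Among the groundhog genes, grd-10 rose and grd-7 fell in both single mutants. grd-10 read 10.65, 10.38 and 10.36 in nth-1, 9.93 and 10.28 in xpa-1 and 10.12 and 9.65 in the double mutant, against 8.94 and 9.38 in N2. All mutant arrays lay above both N2 arrays, and the calls were made in nth-1 (2.47-fold, 1.30 ± 0.23, adjusted p = 0.0117) and xpa-1 (1.93-fold, adjusted p = 0.0498), with 0.72 and an adjusted p of 0.115 in the double mutant. grd-7 read 6.05, 5.76 and 5.76 in nth-1 and 5.86 and 5.73 in xpa-1, against 6.50 and 6.88 in N2 (-0.83 ± 0.16, adjusted p = 0.0151, and -0.90 ± 0.17, adjusted p = 0.017). In nth-1 both calls ended without either N2 array, with adjusted p of up to 0.14 for grd-10 and 0.155 for grd-7. In xpa-1 the grd-7 call ended without xpa-1 replicate 2 or either N2 array (up to 0.134), and the grd-10 call held in 1 of 9 such fits (up to 0.302) and was lost after quantile normalization. With BioC level as a block neither was called in xpa-1 (adjusted p = 0.209 for grd-10 and 0.0933 for grd-7). grd-3, which neighbours grd-10 in the RefSeq order, was not called against N2 in any mutant.

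Of the 10 warthog genes, wrt-6 was called in both single mutants. It read 7.90, 7.59 and 7.58 in nth-1, 7.45 and 7.69 in xpa-1 and 6.69 and 6.77 in the double mutant, against 6.90 and 6.82 in N2. Both single mutants lay above N2 without overlap (0.83 ± 0.16, adjusted p = 0.0138 in nth-1, and 0.71 ± 0.17, adjusted p = 0.0341 in xpa-1), whereas both double mutant arrays lay just below N2 (-0.13, adjusted p = 0.681). The nth-1 call ended without either N2 array (adjusted p up to 0.138) and the xpa-1 call without any 1 of the xpa-1, double mutant or N2 arrays (up to 0.197) and with BioC level as a block (0.158). wrt-4 was also high in the single mutants, with 8.16, 7.85 and 6.81 in nth-1 and 7.78 and 8.30 in xpa-1, against 6.73 and 6.68 in N2, without a call in either (adjusted p = 0.141 and 0.0609). Without nth-1 replicate 3 it was called in nth-1 (1.30, adjusted p = 0.00134). wrt-1 differed from N2 by -0.46 in nth-1, -0.09 in xpa-1 and -0.38 in the double mutant, without a call.

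The Hog-domain genes hog-1 and qua-1 were not called in any comparison. hog-1 read 6.89, 7.18 and 8.08 in nth-1, 7.04 and 6.51 in xpa-1 and 7.13 and 7.04 in the double mutant, against 7.30 and 7.24 in N2. qua-1, which is required for molting, read 7.93, 8.05 and 7.57 in nth-1, 9.31 and 8.25 in xpa-1 and 8.37 and 8.33 in the double mutant, against 8.31 and 8.29 in N2. Arrays of the single mutants lay further apart than the N2 arrays for both genes.

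**Figure D3:**
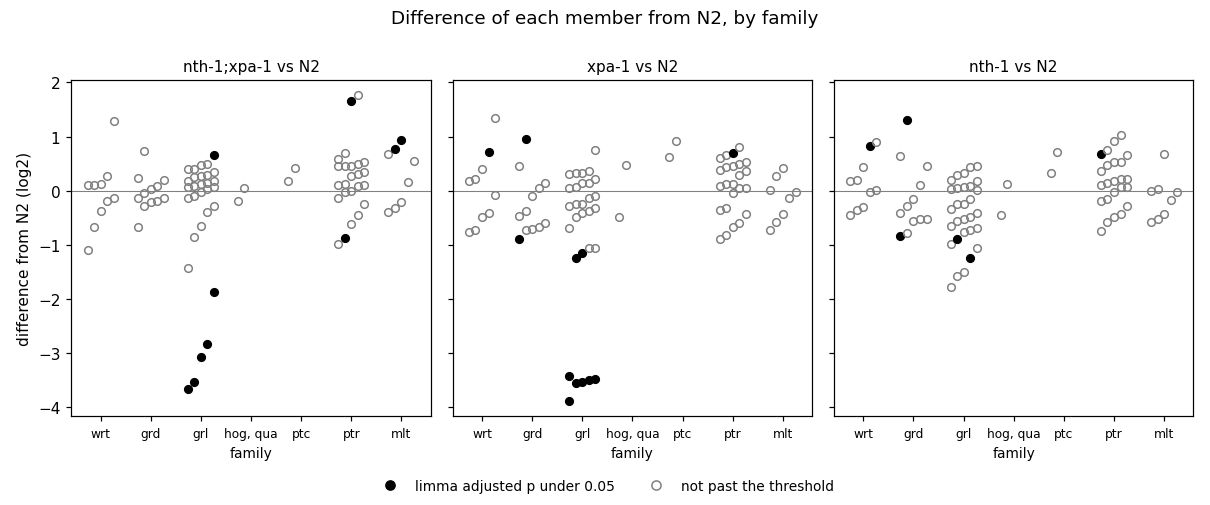
Log2 difference from N2 (y axis) of each member in the double mutant, xpa-1 and nth-1, by family. Filled points passed the limma test at an adjusted p under 0.05 and open points did not. The lowest filled points, down to -3.89, are ground-like genes in the double mutant and xpa-1.

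On the side of the patched relatives, the probe sets that represent the genes gave called differences from N2 of -0.88 to 1.66. Neither patched gene was called. ptc-1, which is needed for cytokinesis in the germ line, read 10.59, 10.63 and 11.66 in nth-1, 11.32 and 11.20 in xpa-1 and 10.87 and 10.76 in the double mutant, against 10.59 and 10.69 in N2. ptc-3 read 7.65, 7.41 and 8.15 in nth-1, 7.71 and 8.15 in xpa-1 and 7.52 and 7.35 in the double mutant, against 6.94 and 7.10 in N2. Every mutant array lay above both N2 arrays for ptc-3, with differences of 0.72, 0.91 and 0.42 and adjusted p of 0.0905, 0.0567 and 0.352. After quantile normalization ptc-3 passed the limma threshold in xpa-1 (0.99, adjusted p = 0.0201) and nth-1 (0.81, adjusted p = 0.0331).

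By its brightest probe set, ptr-2, a patched-related gene, moved in opposite directions in xpa-1 and the double mutant. It read 12.54 and 12.31 in xpa-1, 10.94 and 10.78 in the double mutant and 12.04, 11.87 and 11.92 in nth-1, against 11.70 and 11.77 in N2. The xpa-1 arrays were the highest and the double mutant arrays the lowest, with no overlap among the 4 strains. It rose 1.61-fold in xpa-1 (0.69 ± 0.14, adjusted p = 0.0186) and fell 1.83-fold in the double mutant (-0.88 ± 0.14, adjusted p = 0.00995). Its other 2 probe sets differed from N2 by -0.14 and -0.12 in xpa-1 and by -0.40 and 0.45 in the double mutant, none of them called, and the mean of the 3 probe sets was called in neither strain. The xpa-1 call ended without xpa-1 replicate 1 or either N2 array (adjusted p up to 0.155), and the double mutant call without either double mutant or either N2 array (up to 0.116).

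Among the remaining 23 patched-related genes, ptr-6 rose in the double mutant and ptr-12 in nth-1. ptr-6 read 9.91 and 9.93 in the double mutant, 8.49, 8.95 and 10.09 in nth-1 and 8.75 and 8.63 in xpa-1, against 8.29 and 8.23 in N2. All mutant arrays exceeded N2, with a 3.16-fold rise in the double mutant (1.66 ± 0.43, adjusted p = 0.0493). A second probe set of ptr-6 rose in nth-1 (1.80 ± 0.36, adjusted p = 0.0172) and differed by 1.42 in the double mutant (adjusted p = 0.0596). ptr-12 read 7.97, 7.91 and 8.23 in nth-1, against 7.45 and 7.27 in N2 (0.68 ± 0.18, adjusted p = 0.0444). The ptr-6 call held in 2 and the ptr-12 call in 1 of 9 fits that left out an array, with adjusted p up to 0.251 and 0.289. Relative to N2, the 24 patched-related genes averaged 0.62 in nth-1 replicate 3, with 19 above both N2 arrays, against -0.02 and -0.10 in nth-1 replicates 1 and 2.

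Of the 8 mlt genes, mlt-3 and mlt-7 rose in the double mutant and none was called in a single mutant against N2. mlt-3, an ankyrin repeat partner of the NEKL kinases, read 8.50 and 8.76 in the double mutant, 7.48, 7.25 and 7.87 in nth-1 and 6.90 and 7.05 in xpa-1, against 7.71 and 7.69 in N2. The double mutant arrays were the highest and the xpa-1 arrays the lowest of all 9. The rise was 1.91-fold in the double mutant (0.93 ± 0.22, adjusted p = 0.0371), with -0.72 and an adjusted p of 0.0687 in xpa-1. mlt-7, a heme peroxidase that takes part in cuticle assembly, read 9.07 and 9.12 in the double mutant, 8.33, 8.21 and 8.36 in nth-1 and 8.20 and 8.39 in xpa-1, against 8.29 and 8.36 in N2 (0.77 ± 0.18, adjusted p = 0.034 in the double mutant). Its second probe set differed by 0.64 (adjusted p = 0.1). Both calls ended without either double mutant or either N2 array, and that of mlt-3 also without nth-1 replicate 1, with adjusted p up to 0.239 and 0.223.

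mlt-10, a gene expressed in the epidermis ahead of each molt, read 7.76, 7.69 and 8.03 in nth-1, 8.52 and 8.30 in xpa-1 and 9.0 and 8.90 in the double mutant, against 8.38 and 8.43 in N2. The nth-1 arrays were the lowest and the double mutant arrays the highest, without a call against N2 in either (adjusted p = 0.0723 and 0.114). mlt-11, which encodes the protein with Kunitz-type domains, read 9.15, 8.93 and 11.31 in nth-1, 10.48 and 9.91 in xpa-1 and 9.61 and 9.50 in the double mutant, against 9.77 and 9.78 in N2. The nth-1 arrays lay on both sides of N2 by wide margins, so that the fitted difference was 0.02 with all arrays and -0.74 without nth-1 replicate 3 (adjusted p = 0.986 and 0.0247).

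The double mutant differed from each single mutant in more members than it did from N2. Against xpa-1, 24 members were called, 20 higher and 4 lower, or 27.3% of members beside 35.3% of all genes (20.8% higher and 14.5% lower). Against nth-1, 30 members were called, 18 higher and 12 lower, or 34.1% beside 37.5% of all genes (22.9% higher and 14.6% lower). The members' combined shares were below those of all genes in both comparisons. By direction, 22.7% of members were called higher and 4.55% lower against xpa-1, and 20.5% higher and 13.6% lower against nth-1. The double mutant and nth-1 share no BioC level either, so strain and BioC level cannot be told apart between them, and with BioC level as a block grl-28 and ptr-2 were the only members called against nth-1. Against xpa-1 11 members were called with that block, among them qua-1, which was not called without it, while grl-23, grl-25, wrt-3, wrt-4, ptr-16 and ptr-22 were not called with it (adjusted p = 0.0503 to 0.181). The median of all genes was itself shifted upwards on the deposited scale, by 0.15 in both comparisons, and by 0.03 and 0.04 after quantile normalization. On that scale the members split into 16 higher and 9 lower against xpa-1, and into 14 higher and 16 lower against nth-1, and no called member changed sign. Shares of all genes on that scale are not given beside these counts. These comparisons share the double mutant arrays, so their values are given side by side.

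Of the 8 mlt genes, 4 were called higher and none lower against xpa-1, and 5 were called higher and 1 lower against nth-1, 50% and 75% of the family beside 35.3% and 37.5% of all genes. After quantile normalization 5 were higher and 1, mlt-8, lower against xpa-1. Higher in the double mutant than in xpa-1 were mlt-2, mlt-3, mlt-4 and mlt-7, and higher than in nth-1 were these and mlt-10, while mlt-8 was lower than in nth-1. mlt-2, like mlt-3 and mlt-4 an ankyrin repeat partner of the NEKL kinases, read 7.89 and 8.20 in the double mutant, against 7.0 and 6.85 in xpa-1 and 6.86, 6.79 and 7.13 in nth-1 (1.12 ± 0.18 and 1.12 ± 0.16, adjusted p = 0.00239 and 0.00168). mlt-3 was 3.15-fold higher than in xpa-1 (1.66 ± 0.22, adjusted p = 0.00111) and 2.14-fold higher than in nth-1 (adjusted p = 0.00401). The calls of mlt-2 and mlt-3 in both comparisons passed in all 9 fits that left out 1 array. mlt-10 was higher than in nth-1 by 1.12 ± 0.18 (adjusted p = 0.00213), and its second probe set, which may also match other transcripts, differed by 0.17 (adjusted p = 0.727). For mlt-4 a second probe set was called in the opposite direction, with -0.58 against xpa-1 and -0.56 against nth-1 (adjusted p = 0.0249 and 0.019), beside 0.75 and 0.69 for the first, so that its direction is not settled. With BioC level as a block mlt-2 and mlt-3 remained called against xpa-1 (adjusted p = 0.0166 and 0.007) and were not called against nth-1 (0.108 and 0.1), and neither was mlt-10 (0.129), which also ended as the mean of its probe sets.

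Among ligand-like genes, grl-28 and grl-22 were higher in the double mutant than in either single mutant, at the level of N2 or above it. grl-22 read 8.63 and 8.46 in the double mutant, which is above every other array, and was 2.15-fold higher than in xpa-1 (1.10 ± 0.20, adjusted p = 0.0042) and 2.46-fold higher than in nth-1 (1.30 ± 0.19, adjusted p = 0.00154). grl-28 was 2.34-fold higher than in xpa-1 (adjusted p = 0.0011) and 2.49-fold higher than in nth-1 (adjusted p = 0.000669). These 4 calls passed in all fits that left out 1 array, and of the 4 the call of grl-22 against nth-1 alone ended with BioC level as a block (adjusted p = 0.129). wrt-3 read 7.70 and 8.19 in the double mutant, against 6.48 and 5.85 in xpa-1 and 5.98, 5.85 and 7.03 in nth-1 (1.78 ± 0.38 and 1.66 ± 0.35, adjusted p = 0.00812 and 0.0074), and these calls ended without double mutant replicate 2 (adjusted p = 0.0666 and 0.0741) and, against xpa-1, without xpa-1 replicate 2. With BioC level as a block wrt-3 was not called against xpa-1 (adjusted p = 0.0575) or nth-1 (1.03, adjusted p = 0.365). grl-4 was also higher than in both single mutants (1.31 and 1.25, adjusted p = 0.0451 and 0.0381), and these calls held in 3 and 4 of the 9 fits, with a difference from xpa-1 of 0.84 without xpa-1 replicate 1.

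wrt-6 was lower in the double mutant than in xpa-1 (-0.84 ± 0.17, adjusted p = 0.00623) and in nth-1 (-0.96 ± 0.16, adjusted p = 0.00249). The call against xpa-1 ended without double mutant replicate 1 (adjusted p = 0.0524), and that against nth-1 with BioC level as a block (-0.72, adjusted p = 0.163). wrt-4, at 6.89 and 6.73 in the double mutant, was lower than in xpa-1 (-1.23 ± 0.39, adjusted p = 0.0368), a call that held in 3 of the 9 fits. Of the 6 ground-like genes above, grl-23 and grl-25 were higher in the double mutant than in xpa-1, by 3.18-fold and 4.04-fold (adjusted p = 0.0217 and 0.0348), and grl-3, grl-17 and grl-20 were lower than in nth-1, by 3.89-fold, 4.47-fold and 4.22-fold (adjusted p = 0.0211, 0.0277 and 0.0256). The grl-23 and grl-25 calls ended without either array of the double mutant or of xpa-1 (adjusted p up to 0.112 and 0.142) and the grl-25 call also without either N2 array, while the others ended without either double mutant array (up to 0.139) and with BioC level as a block (0.265 to 0.334). Without nth-1 replicate 3 the differences of grl-3, grl-17 and grl-20 from nth-1 were -1.28, -1.34 and -1.32, all called. With all arrays, not all probe sets of grl-25 were called against xpa-1, nor all of grl-20 against nth-1. For grl-3 and grl-17 the double mutant differed from xpa-1 by -0.04 ± 0.59 and -0.17 ± 0.69.

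**Figure D4:**
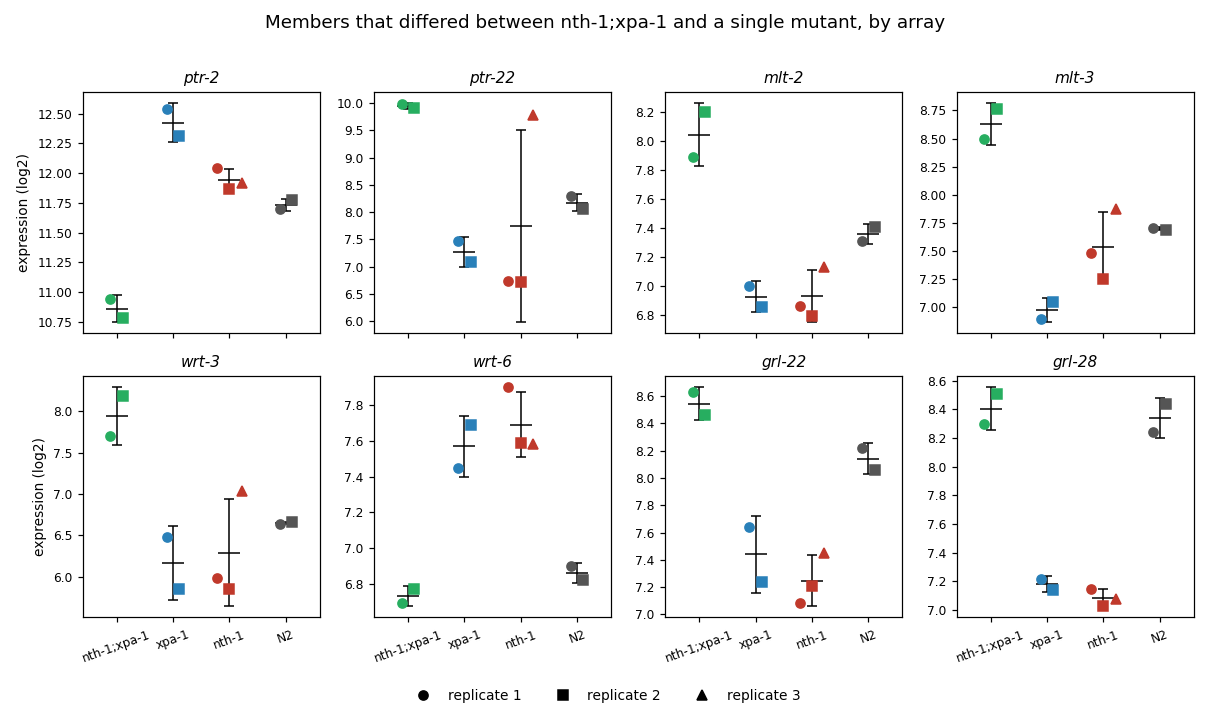
Log2 expression (y axis, own scale for each gene) of 8 members in the double mutant, xpa-1, nth-1 and N2, from left to right. Each symbol is 1 array, its shape gives the replicate number, and the black bar is the mean with the SD of 3 or 2 arrays. ptr-2 and wrt-6 are lowest in the double mutant, and the other 6 genes are higher there than in either xpa-1 array.

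Of the patched-related genes, ptr-2 showed the smallest p of all members against xpa-1, with a 2.96-fold lower level in the double mutant than in xpa-1 (-1.56 ± 0.14, adjusted p = 0.000321) and a 2.12-fold lower level than in nth-1 (-1.08 ± 0.13, adjusted p = 0.000738). Both calls passed in all 9 fits that left out 1 array and with BioC level as a block. Another probe set of ptr-2 was called in the opposite direction in both comparisons (0.56 and 0.44, adjusted p = 0.0125 and 0.0242), and the mean of its 3 probe sets was called in neither, so that its direction is not settled. ptr-22 read 9.98 and 9.90 in the double mutant, against 7.47 and 7.08 in xpa-1 and 6.73, 6.72 and 9.78 in nth-1. The double mutant was 6.34-fold higher than xpa-1 (2.67 ± 0.87, adjusted p = 0.0417), a call that held in 3 of 9 fits without 1 array, and 4.58-fold higher than nth-1 without a call (adjusted p = 0.0575). After quantile normalization ptr-22 was called against nth-1 (2.30, adjusted p = 0.0329), and without nth-1 replicate 3 that difference was 3.22 and called. ptr-4, which is needed for assembly of the apical extracellular matrix, read 6.99 and 6.80 in the double mutant, against 8.27, 7.92 and 9.44 in nth-1 (-1.65 ± 0.38, adjusted p = 0.0102). Not all probe sets of ptr-4 were called against nth-1. ptr-1 was likewise lower than in nth-1 (-1.47 ± 0.43, adjusted p = 0.0268), and the calls of ptr-4 and ptr-1 ended without either double mutant array (adjusted p up to 0.0802 and 0.135) and with BioC level as a block (0.243 and 0.185). Without nth-1 replicate 3 the difference of ptr-1 was -0.96. ptr-16 read 5.64 and 5.41 in the double mutant, against 6.11 and 6.01 in xpa-1 (-0.54 ± 0.14, adjusted p = 0.0201), and its call ended without double mutant replicate 2 or either xpa-1 array (up to 0.137).

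For 32 of 88 members, 36.4%, beside 40% of all genes, the change in the double mutant differed from the sum of the changes in both single mutants, by a contrast within the same limma fit that was added after the data had been seen. The contrast was positive for 24 members, among them grl-28 (2.48 ± 0.22, adjusted p = 0.000169), and negative for 8, among them ptr-2 by its brightest probe set (-1.77 ± 0.19, adjusted p = 0.000332). All double mutant and N2 arrays held the higher BioC level, whereas all nth-1 arrays and xpa-1 replicate 2 held the lower. The contrast is given without that level as a block, so strain and BioC level cannot be told apart in it.

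Between the single mutants no member was called in limma. At an unadjusted p under 0.05, 4 members were higher and 10 lower in xpa-1 than in nth-1, 4.55% and 11.4% of members beside 5.07% and 3.55% of all genes. Of all genes 3, 0.0175%, passed the adjusted threshold, 0.00584% higher and 0.0117% lower. In the fit without nth-1 replicate 3, 11 members were called, a count that stands without the share of all genes in that fit. The widest differences were those of grl-20, grl-25, grl-23 and grl-19, with log2 differences of -2.81, -2.74, -2.48 and -2.10 between xpa-1 and nth-1 (adjusted p = 0.254 to 0.493).

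A list of 63 other genes that act in molting and the cuticle, of which 59 were measured, gave 7 calls in nth-1 (11.9% of the list beside 10.4% of all genes), 4 in xpa-1 (6.78% beside 10.9%) and 2 in the double mutant (3.39% beside 9.1%) against N2. In nth-1, nas-37, sqt-1, let-767 and nas-36 were higher than in N2 and osm-11, nekl-2 and bli-5 lower. In xpa-1, sqt-1 and let-767 were higher and nekl-2 and bli-5 lower, and in the double mutant ncr-2 and nas-6 were higher and none lower. nas-37, an astacin protease that loosens the old cuticle, read 9.80, 9.35 and 9.94 in nth-1, against 8.02 and 8.03 in N2 (1.67 ± 0.40, adjusted p = 0.0332). Its other mutant arrays also lay above N2 without a call, at 8.33 and 9.86 in xpa-1 and 9.37 and 9.17 in the double mutant (adjusted p = 0.147 and 0.112). nekl-2, a NIMA-related kinase required for molting, read 8.19, 8.30 and 9.02 in nth-1 and 8.51 and 7.73 in xpa-1, against 9.96 and 9.98 in N2 (-1.47 ± 0.31, adjusted p = 0.0207, and -1.85 ± 0.34, adjusted p = 0.0131). Its double mutant arrays, at 10.53 and 10.49, were the highest of all 9 and differed from xpa-1 by 2.39 ± 0.34 (adjusted p = 0.00138).

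Among 5 relatives of the Hedgehog pathway outside the families, all of them also on that list, ncr-2 was called. It encodes a relative of the human sterol transporter NPC1 with a sterol-sensing domain, and read 8.96 and 8.82 in the double mutant, 7.14, 7.15 and 7.52 in nth-1 and 6.54 and 7.30 in xpa-1, against 7.12 and 7.15 in N2. The double mutant stood above every other array, with differences of 1.76 ± 0.25 from N2, 1.97 ± 0.25 from xpa-1 and 1.62 ± 0.23 from nth-1 (adjusted p = 0.00726, 0.001 and 0.00152). The related ncr-1, the GLI relative tra-1, the Dispatched relative che-14 and ptd-2 were not called in any comparison.

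The double mutant was set against the single mutants for the rest of the molting list as well, where 9 genes were higher and 6 lower than in xpa-1, and 11 higher and 7 lower than in nth-1. These were 25.4% and 30.5% of the list, beside 35.3% and 37.5% of all genes. nhr-23, a nuclear receptor that drives the molting programme, read 8.89 and 8.59 in the double mutant, against 10.36 and 9.98 in xpa-1 (-1.43 ± 0.37, adjusted p = 0.0168). It read 9.20, 9.31 and 10.34 in nth-1 and 9.13 and 9.05 in N2. Neither the double mutant (-0.35, adjusted p = 0.6) nor xpa-1 (1.08, adjusted p = 0.0954) was called against N2 for this gene. let-767, a steroid dehydrogenase relative, read 11.69 and 11.58 in the double mutant, against 12.58 and 12.89 in xpa-1 and 12.78, 12.61 and 12.70 in nth-1 (-1.10 and -1.06, adjusted p = 0.000753 and 0.00065). osm-11 and tbx-2 were higher in the double mutant than in nth-1 (1.51 and 1.49, adjusted p = 0.00925 and 0.0323). All 9 markers of the germ line and oocytes were also lower in the double mutant than in xpa-1, with a median of -1.47. Against nth-1 6 of the 9 were called lower (median -0.72), and against N2 4 of the 9 (median -0.735). In xpa-1 itself 3 of the 9 were called higher than in N2, with a median of 0.80. The 5 measured yolk protein genes averaged 12.32 and 12.38 in the double mutant, 14.03 and 14.08 in xpa-1, 14.01, 13.90 and 12.56 in nth-1, and 13.42 and 13.51 in N2. Of the pharynx markers 3 of 4 were higher than in each single mutant, of the embryo markers 3 of 5 were higher and 1 lower than in each, and of the body wall muscle markers 1 of 4 was higher than in xpa-1 and 3 of 4 than in nth-1. Of the 6 epidermal markers elt-3 was higher than in each single mutant and dpy-7 lower than in nth-1. The sperm markers spe-11 and fer-1 were higher and the intestine marker ges-1 lower than in each. The neuron marker egl-3 was higher than in nth-1, and no adult cuticle marker was called. The part of these tissues in the members' values was not tested.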

How the data were processed

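Total RNA of the 4 strains was hybridized to Affymetrix GeneChip C. elegans Genome Arrays, and 9 arrays were analysed here. The deposited values, taken as log2 from their range of 0 to 14.55 and the methods, were made by the authors with dChip (version not given in the sources used here) by invariant-set normalization and a perfect-match-only model. Whether a gene was detected cannot be read from them. Of 22625 probe sets, 77 controls were left out, 20766 carried 1 platform symbol, 887 several and 895 none, and probe sets with several symbols named no gene. A gene was represented by its probe set of highest mean over the 9 arrays.

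Here 1 model with a coefficient per strain was fitted to all 22548 probe sets with limma 3.58.1 in R 4.3.3 (lmFit, eBayes with trend, 5 residual degrees of freedom), p-values being adjusted by Benjamini-Hochberg over all probe sets at a threshold of 0.05. Errors are standard errors of the fit. The number of arrays limits the precision. The fit was tested on simulated data with independent normal noise. These held no BioC level and no array that stands apart, so that test does not cover either. Named were the called members with the widest differences whose arrays did not overlap N2, the 5 widest in each direction between the double and a single mutant, fixed role representatives, and up to 4 genes of each pathway list. The members, lists and tests were chosen with earlier results of these data known. The alternatives were quantile normalization, 32 added before the logarithm, no variance trend, probe sets above the 40th percentile, the mean of a gene's probe sets, the replicate number or BioC level as a block, values within a BioC level, strains fitted alone, and each array left out. Replicate numbers did not pair the arrays (r of deviations -0.30 to 0.10). All 88 members matched RefSeq (WBcel235), which was used for names and gene order. Plots were made in Python 3.11.15 using matplotlib 3.10.9.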

Additional observations from a re-analysis of the deposited data

Results flagged for a closer look

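For 19 named members the effect of losing nth-1 differed between the xpa-1 background and the N2 background, by a limma contrast over all probe sets (adjusted p = 0.000169 to 0.0322). The difference between those effects was positive, on the log2 scale, at 2.73 for grl-23, 2.71 for grl-25, 2.48 for grl-28, 2.31 for grl-4, 2.14 for wrt-3, 2.0 for grl-22, 1.82 for mlt-3, 1.45 for grd-7, 1.31 for grl-10, 1.12 for mlt-10, 0.82 for mlt-7 and 0.74 for grl-6. It was negative for ptr-4 (-2.13), wrt-4 (-2.13), ptr-2 (-1.77), wrt-6 (-1.67), grd-10 (-1.52), ptc-3 (-1.21) and ptr-16 (-0.9). For grl-28, loss of nth-1 gave 1.23 in the xpa-1 background and -1.25 in the N2 background, and for ptr-2 it gave -1.57 in the xpa-1 background and 0.21 in the N2 background. Over all members this contrast was called for 32 of 88, 36.4% beside 40% of all genes. It sets the double mutant and N2, all at the higher BioC level, against nth-1 and xpa-1. Of the latter, all arrays but xpa-1 replicate 1 held the lower level. BioC level was not a block, so it and strain cannot be told apart here. The ptr-2 values are those of its brightest probe set, and another was called in the opposite direction between the double and each single mutant. Groups of 2 or 3 arrays are too small for a test of single arrays far from their group.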

How the results depend on the processing

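No called value of a named member changed sign: of 872 values that the alternatives gave for 47 called results, 659 stayed past the threshold and 213 did not. Under several alternatives the sign was fixed in advance. Dropping the variance trend, or leaving out an array of a strain outside the comparison, leaves the difference itself unchanged. The alternatives also did not take the other probe sets of ptr-2 on their own, 1 of which was called in the opposite direction. For mlt-11, not called in nth-1, the difference from N2 ran from -0.74 to 0.46 over the fits that left out 1 array, the lowest being that without nth-1 replicate 3, and was also -0.74 with the replicate block and when xpa-1 replicate 2 was left out with nth-1 replicate 3. Leaving out 1 array gave 1 to 31 called members in nth-1 against N2 (6 with all arrays), 1 to 34 in xpa-1 (12), 0 to 29 in the double mutant (10), 7 to 43 in the double mutant against xpa-1 (24), 9 to 43 against nth-1 (30) and 0 to 11 in xpa-1 against nth-1 (0). The replicate block gave 28, 30, 25 and 40 called members in the first 4 of these and 9 in the last, and replicate numbers did not pair the arrays. With BioC level as a block the counts of the first 5 were 0, 3, 6, 11 and 2. Within the higher BioC level xpa-1 against N2 had 41, the double mutant against N2 39 and the double mutant against xpa-1 42, but that level holds 1 xpa-1 array, which is assumed to vary like the other strains. Strains fitted alone gave 2 in nth-1, 24 in xpa-1 and 39 in the double mutant against N2, and 19 in the double mutant against nth-1. Without nth-1 replicate 3 and xpa-1 replicate 2, an alternative chosen after seeing the data, the 6 counts were 46, 34, 36, 38, 52 and 23, again with 1 xpa-1 array. The causes of these shifts were not tested. The fit pools 1 spread over all strains, so leaving out an array of 1 strain also alters p-values between the others. Member counts under these alternatives, here and above, stand without the share of all genes under the same setting. They do not set the members apart from other genes. The comparisons rest on 2 or 3 arrays a strain, and the depth of signal over background is unknown for values without detection calls.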

Other observations

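Probe sets that carry several gene symbols were outside the families as defined. The probe set shared by mlt-3 and Y39C12A.2 read 6.88 and 6.99 in the double mutant, 7.07 and 7.28 in xpa-1 and 6.90, 6.85 and 6.97 in nth-1, against 6.27 and 6.20 in N2. It was called higher in all mutants (limma adjusted p = 0.0219 in the double mutant, 0.00625 in xpa-1 and 0.0149 in nth-1), a pattern unlike that of the probe set of mlt-3 alone, whose xpa-1 arrays lay below N2. The probe set shared by ptc-1 and ptc-2 and the one shared by grl-32 with T24A6.1 and T07F10.5 were not called in any mutant against N2. Of the muscle genes, myo-3 was called higher than N2 in xpa-1 and, with unc-15, in the double mutant. Other marker lists held calls against N2 as well. In xpa-1 the germ line markers pgl-1, rme-2 and puf-5 and the yolk gene vit-6 were higher. In the double mutant glp-1, glh-1, oma-1, puf-5, vit-2, vit-6, ges-1 and pie-1 were lower and spe-11 was higher. No marker was called in nth-1 against N2.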
